A study of Bos taurus with 8 samples.

Results

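Aminoacyl-tRNA synthetases are the enzymes that join each amino acid to its transfer RNA. Their transcripts were compared between bovine blastocysts cultured with buthionine sulfoximine (BSO) and blastocysts cultured without it. Members were chosen by symbol: the one-letter code of an amino acid followed by ARS, with nothing, 1 or 2 after it, or FARSA or FARSB, the subunits of the cytosolic phenylalanine enzyme. In the platform annotation 43 of 43794 gene probes carried such a symbol, for 28 genes. A filter on dim probes left 41 of these probes, 36995 probes on the array as a whole, and at least 1 probe for each of the 28 genes. Those genes were 12 mitochondrial synthetases, with the suffix 2, and 16 cytosolic ones. Other genes of the family, among them DARS, EPRS, QARS, VARS, AARS2, EARS2, HARS2 and VARS2, are not analysed here.

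Most amino acids have one synthetase gene for the cytosol and a separate nuclear gene, named with a 2, for the mitochondrion. GARS and KARS each serve both compartments. Several cytosolic enzymes are held together in the multisynthetase complex. Many cytosolic synthetase genes are known targets of ATF4, the transcription factor of the integrated stress response, in cultured mammalian cells. BSO inhibits glutamate-cysteine ligase, the first step of glutathione synthesis, so the synthetases that use glutamate, cysteine and glycine share their substrates with that pathway.

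The BSO group was exposed to 0.4 mM BSO from day 3 to day 5 of culture and to 0.01 mM from day 5 to day 7, in a stepwise synthetic oviductal fluid, and the control group had the same media without BSO. Embryos of both groups came from slaughterhouse ovaries matured and fertilized in vitro and were collected as blastocysts 196 h after fertilization, in 4 pools of 10 per treatment. A BSO and a control pool were hybridised together on each of 8 arrays, BSO being in Cy5 on 4 of them and in Cy3 on 4. Arrays of opposite orientation at the same order within slides were averaged to 4 replicates, of which replicates 1 and 2 came from a pair of slides with 2 arrays each, and the remaining ones from a single slide with 4 arrays (slide 25). The labels do not say whether pools came from separate cultures, so the spread behind each p-value may be technical only.

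Each value is the log2 of BSO over control signal in a replicate, taken at the brightest kept probe of a gene, and errors are limma standard errors over 4 replicates unless stated otherwise. A ratio compares a gene with the rest of the array and carries no information on total RNA. In whole blastocysts, fewer cells of a type and less RNA per cell cannot be told apart. All 9 trophectoderm and all 5 epiblast markers were above the negative controls in both channels on all 8 arrays. So were the hypoblast markers GATA4 and PDGFRA, while SOX17 was so on 6 arrays and GATA6 was not analysed here. Of 7 markers of cumulus and granulosa cells, which surround the oocyte, 2 were so on all 8 arrays, CYP19A1 and INHBA, and AMH did not pass the filter. Replicate medians of the 9 trophectoderm markers were 0.048, -0.50, 0.0034 and -0.014, so replicate 2 stood lowest. Single markers lay further from 0: KRT19 was at -1.21 ± 0.21, IFNT at -1.12 ± 0.26, KRT18 at -0.64 ± 0.30 and the hypoblast marker GATA4 at -0.85 ± 0.17, each a larger ratio in size than that of any synthetase. Other markers were higher: ELF5 was at 0.15 ± 0.046, PDGFRA at 0.17 ± 0.12, KLF4 at 0.40 ± 0.17 and DPPA3 at 0.49 ± 0.087. Ratios lay below 0 for 6 of 9 trophectoderm, 2 of 5 epiblast and 1 of 3 measured hypoblast markers, against 48.6% of named genes. None of these markers passed an adjusted p of 0.05 in limma. At an unadjusted limma p under 0.05, the 9 trophectoderm markers gave 3 lower, against 14.8% of named genes, and 1 higher, against 10.4%. The part of these markers in the synthetase ratios was not tested.

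In BSO blastocysts, the lowest synthetase ratios were those of KARS and SARS, at -0.58 and -0.57 on the log2 scale, the second being 1.49-fold lower. WARS2 and RARS had the highest, 1.42-fold and 1.41-fold higher. None of the 28 genes had a limma adjusted p under 0.05, and neither did any of the 13678 named genes, a background of 0%. The lowest adjusted p among the synthetases was 0.0573, for KARS. At an unadjusted p under 0.05, 7 synthetases were lower (25%), against 14.8% of all named genes, and 5 were higher (17.9%), against 10.4%. Without replicate 2 the count of higher synthetases was 2 of 28, against 7.44% of named genes, and without replicate 3 it was 2 of 28, against 7.49%, so in either case their share was near the background. Ratios lay below 0 in all 4 replicates for 7 synthetases, against 17.8% of named genes, and above 0 in all 4 for 6, against 17%. That makes 13 with a single sign, against 34.8%. Brightness accompanied such counts: of the 4681 genes that passed a stricter brightness filter, 16.2% stood lower and 18% stood higher at that p in the same fit. Of the 15 synthetases in that brighter set, 5 were lower and 3 higher, 8 in all against 34.2%, and the part of brightness in the counts over 28 genes was not tested.

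**Figure D1:**
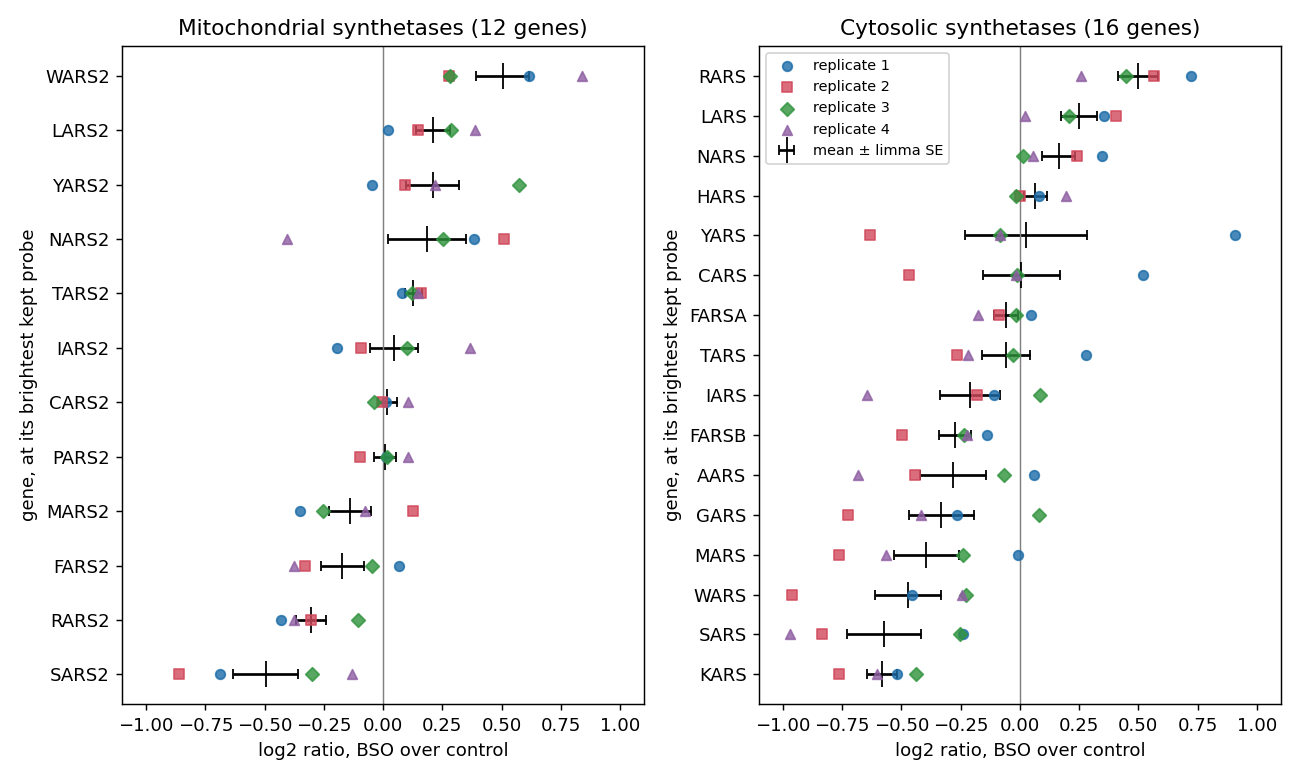
Log2 ratio of BSO over control (horizontal axis) for 12 mitochondrial (left) and 16 cytosolic synthetase genes (right), with a marker for each of the 4 replicates and a black line for the mean ± limma SE. WARS2, RARS, LARS, LARS2, NARS and TARS2 lie above 0 in all 4 replicates, and KARS, SARS, WARS, MARS, FARSB, SARS2 and RARS2 lie below 0 in all 4.

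Among the cytosolic enzymes, KARS, which charges lysine for both compartments, was at -0.52, -0.76, -0.44 and -0.60 in replicates 1 to 4. All 4 replicates lay below 0 and close together, with a mean of -0.58 ± 0.064 and a limma adjusted p of 0.0573. This probe was bright, reaching 66.9% of the highest intensity on the arrays, and on the scanner values of both orientations its mean was alike, at -0.63 with BSO in Cy5 and -0.53 with BSO in Cy3. The other KARS probe, far dimmer, was at 0.019, so the mean over both probes was -0.28. SARS, the cytosolic serine enzyme, was at -0.24, -0.83, -0.25 and -0.97. Its 4 replicates shared a sign, and replicates 2 and 4 were the lowest, with a mean of -0.57 ± 0.16 and a limma adjusted p of 0.135.

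WARS charges tryptophan in the cytosol. It was at -0.46, -0.96, -0.23 and -0.24, with a mean of -0.47 ± 0.14 and a limma adjusted p of 0.154. Replicate 2 was the lowest, and without it the mean was -0.31. The ratio also differed between dyes: with BSO in Cy5 the 4 arrays were at -0.81, -1.52, -0.69 and -0.57, and with BSO in Cy3 they were at -0.10, -0.41, 0.23 and 0.087. The dye term had a limma adjusted p of 0.0285, and 2 dimmer WARS probes were at 0.071 and 0.0042. A dye effect that is equal across pairs cancels in the replicate means. The dimmer probes did not show the ratio of the brightest one, but they lay near the background and cannot decide on it. Their mean log2 intensities were 7.57 and 7.17, against 9.95 for the brightest probe and 7.10 for the 95th percentile of the negative controls.

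MARS, which charges methionine, including the one that starts each cytosolic protein, was at -0.0074, -0.76, -0.24 and -0.57. The mean was -0.39 ± 0.14, and replicate 1 was near 0. GARS, the glycine enzyme of both compartments, was at -0.27, -0.73, 0.082 and -0.42, with a mean of -0.33 ± 0.14 and a limma adjusted p of 0.245, and replicate 3 was of the opposite sign. Without replicate 2 the GARS mean was -0.20. FARSB, the beta subunit of the phenylalanine enzyme, was at -0.14, -0.50, -0.24 and -0.22, below 0 in all 4 replicates, with a mean of -0.27 ± 0.069. FARSA, its partner subunit, was at -0.057 ± 0.050 on a dim probe, and its second probe was at -0.098.

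The highest cytosolic ratio was that of RARS, which charges arginine. It was at 0.72, 0.57, 0.45 and 0.26, above 0 in all 4 replicates and on all 8 arrays, with single arrays between 0.22 and 0.90. The mean was 0.50 ± 0.084, with a limma adjusted p of 0.0784. LARS, the leucine enzyme, was at 0.36, 0.41, 0.21 and 0.023, with a mean of 0.25 ± 0.076 and a limma adjusted p of 0.160. Both orientations gave LARS the same mean, 0.25. NARS, the asparagine enzyme, was at 0.16 ± 0.070, above 0 in all 4 replicates, while 2 further NARS probes gave 0.072 and 0.040.

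The remaining cytosolic genes had means between -0.28 and 0.065. AARS, for alanine, was at -0.28 ± 0.14 on its brightest probe and at 0.051 on the other. Both AARS probes were dim and nearly equal in brightness, with mean log2 intensities of 7.61 and 7.59, so the sign for AARS depends on the probe taken. IARS, for isoleucine, was at -0.21 ± 0.13, with replicate 4 alone at -0.64. TARS, for threonine, was at -0.058 ± 0.10, and HARS, for histidine, at 0.065 ± 0.049. YARS, the tyrosine enzyme, averaged 0.026 ± 0.26, the widest error of the 28 genes. Its replicates were at 0.91, -0.63, -0.085 and -0.084, so replicates 1 and 2, of the same slides, lay on opposite sides of 0.

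Of the 5 measured synthetases of the multisynthetase complex, KARS, MARS and IARS had ratios below 0, and RARS and LARS had ratios above 0. The ratios within the complex thus spanned -0.58 to 0.50, the whole span of the 16 cytosolic genes. Its scaffold proteins, given here for their role, were AIMP1 at 0.25 ± 0.11, AIMP2 at -0.010 ± 0.066 and EEF1E1 at -0.11 ± 0.063, and none passed the adjusted threshold.

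Among the mitochondrial enzymes, WARS2, for tryptophan, had the highest ratio of all 28 genes. It was at 0.62, 0.28, 0.28 and 0.84, above 0 in all 4 replicates and on all 8 arrays. The mean was 0.50 ± 0.11, with a limma adjusted p of 0.107, and it was 0.57 with BSO in Cy5 and 0.44 with BSO in Cy3. LARS2, for leucine, was at 0.021, 0.15, 0.29 and 0.39, above 0 in all 4 replicates, averaging 0.21 ± 0.071 (limma adjusted p of 0.185). YARS2, for tyrosine, was at -0.048, 0.091, 0.57 and 0.22. Replicate 3 was the highest, and without it the mean of 0.21 ± 0.11 became 0.087. NARS2, for asparagine, was at 0.38, 0.51, 0.25 and -0.41, a mean of 0.19 ± 0.16 in which replicate 4 opposed the other 3. Dimmer probes had the opposite sign, at -0.037 for YARS2 and -0.055 for NARS2, but both lay near the background. Their mean log2 intensities were 7.13 and 7.29, against 7.10 for the 95th percentile of the negative controls. This YARS2 probe was above the negative controls on 4 of 8 arrays in each channel.

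TARS2, the mitochondrial threonine enzyme, had a small ratio with a narrow spread. It was at 0.082, 0.16, 0.12 and 0.15, averaging 0.13 ± 0.035, while 2 further TARS2 probes gave 0.22 and 0.062. All 3 TARS2 probes were dim, with mean log2 intensities of 7.40 to 7.61 against 7.10 for the 95th percentile of the negative controls.

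The lowest mitochondrial ratio was that of SARS2, for serine, at -0.69, -0.86, -0.30 and -0.13. The mean was -0.49 ± 0.14, with a limma adjusted p of 0.141. The 4 arrays with BSO in Cy5 were at -1.29, -1.62, -0.61 and -0.43, while those with BSO in Cy3 were at -0.092, -0.10, 0.013 and 0.17. The 2 sets did not overlap, and the dye term had a limma adjusted p of 0.0253. A dimmer SARS2 probe, above the negative controls on 1 of 8 arrays in the BSO channel, was at -0.14. SARS2 also differed most between slide sets, at -0.78 in replicates 1 and 2 and -0.21 in replicates 3 and 4, but the adjusted p of that difference was 0.714 with limma. RARS2, the arginine enzyme, was at -0.43, -0.30, -0.11 and -0.38. All 4 replicates were below 0, with a mean of -0.30 ± 0.065 and a limma adjusted p of 0.101. FARS2, MARS2, IARS2, CARS2 and PARS2 had means between -0.17 and 0.046. PARS2 and CARS2 were near the background, above the negative controls on 5 of 8 arrays in the control channel.

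**Figure D2:**
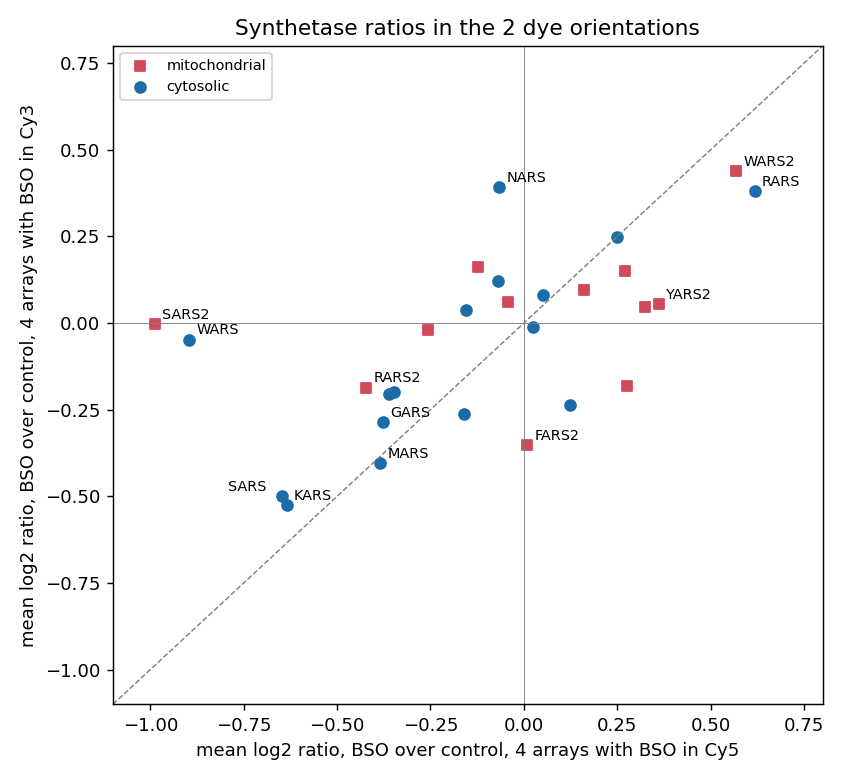
Mean log2 ratio of BSO over control on the 4 arrays with BSO in Cy5 (horizontal axis) against the 4 arrays with BSO in Cy3 (vertical axis), with a point per synthetase gene. WARS2, SARS, KARS and MARS lie near the dashed line of equal ratios, while SARS2 and WARS lie far to the left at ratios near 0 on the vertical axis.

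A dye effect at a limma adjusted p under 0.05 was found for 4 of the 28 genes, against 19.5% of named genes: SARS2, WARS, FARSA and CARS2. The 2 orientations gave opposite signs for 9 of the 28, against 43.5% of named genes. No synthetase differed between slide sets at an adjusted p under 0.05 with limma, where 0% of named genes did, and 3 did so at an unadjusted p under 0.05, against 7.88%. Those 3 were SARS2, NARS and IARS2. Slide sets had opposite signs for 6 of the 28, against 30% of named genes.

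For the amino acids of glutathione, 3 genes were measured, and none had an unadjusted limma p under 0.05. CARS2, the mitochondrial cysteine enzyme, was at 0.012, -0.0039, -0.038 and 0.10, with a mean of 0.018 and a 95% limma interval of -0.086 to 0.12. This probe was near the background, so the narrow interval does not show an unchanged transcript. Its mean was -0.12 with BSO in Cy5 and 0.16 with BSO in Cy3. CARS, the cytosolic cysteine enzyme, was at 0.52, -0.47, -0.010 and -0.018. Its mean was 0.0057, but the replicates opposed each other and the 95% limma interval ran from -0.42 to 0.43. GARS is given above, with a 95% limma interval of -0.69 to 0.025.

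Mitochondrial synthetases had a median ratio of 0.032 and cytosolic synthetases a median of -0.13, against 0.0044 over all named genes. Ratios lay below 0 for 4 of 12 mitochondrial genes and 10 of 16 cytosolic genes, against 48.6% of named genes. Mitochondrial genes lower at an unadjusted p under 0.05 numbered 2, and those higher 3, while cytosolic ones numbered 5 lower and 2 higher, beside 14.8% lower and 10.4% higher among all named genes. The 2 lower mitochondrial and 2 higher cytosolic genes were close to those shares. In replicates 1 to 4 the mitochondrial medians were 0.012, 0.044, 0.059 and 0.10, and the cytosolic medians were 0.054, -0.45, -0.022 and -0.22. The mitochondrial median minus the cytosolic one was 0.17, with -0.043, 0.50, 0.080 and 0.33 in the replicates, so replicate 1 was of the opposite sign. Without replicate 4 the difference was 0.025 and the mitochondrial median was -0.017, and without replicate 1 the difference was 0.33. The cytosolic median was -0.042 without replicate 4 and -0.26 without replicate 1. Without GARS and KARS, which serve both compartments, it was -0.058 over 14 genes and the difference was 0.090. On the slide pair alone the difference was 0.062, and on slide 25 alone it was 0.19. Replicate 2, with the lowest cytosolic median, was also the one with the lowest trophectoderm marker median, -0.50. In replicate 4 the cytosolic median was -0.22 and the trophectoderm median -0.014. KRT8, KRT18, GATA2, GATA3, CDX2 and TFAP2C were lowest in replicate 2, IFNT and ELF5 in replicate 1, and KRT19 in replicate 3. A link between cytosolic and trophectoderm medians was not tested.

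Within an amino acid, mitochondrial and cytosolic genes could be paired in 12 ways over 11 amino acids, with FARS2 set against both cytosolic subunits. The mitochondrial ratio was the higher one in 9 pairs and the lower one in 3, with a median difference of 0.091. The pairs for tryptophan and arginine had the same order in all 4 replicates, and they ran in opposite directions. WARS2 minus WARS was 1.07, 1.24, 0.51 and 1.08 in the replicates, with a mean of 0.98 ± 0.32 (SD, n = 4). RARS2 minus RARS was -1.15, -0.87, -0.55 and -0.64, with a mean of -0.80 ± 0.27 (SD, n = 4). With 4 replicates an exact two-sided permutation test over their signs cannot go below p = 0.125, so no pair could pass a threshold, and these differences are descriptions. The WARS side of the tryptophan pair carried the dye gap described above, whereas both genes of the arginine pair had the same sign in both orientations. RARS was at 0.62 with BSO in Cy5 and 0.38 with BSO in Cy3, and RARS2 was at -0.42 and -0.19. Both serine genes were below 0, at -0.49 for SARS2 and -0.57 for SARS, and both leucine genes were above 0, at 0.21 for LARS2 and 0.25 for LARS.

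**Figure D3:**
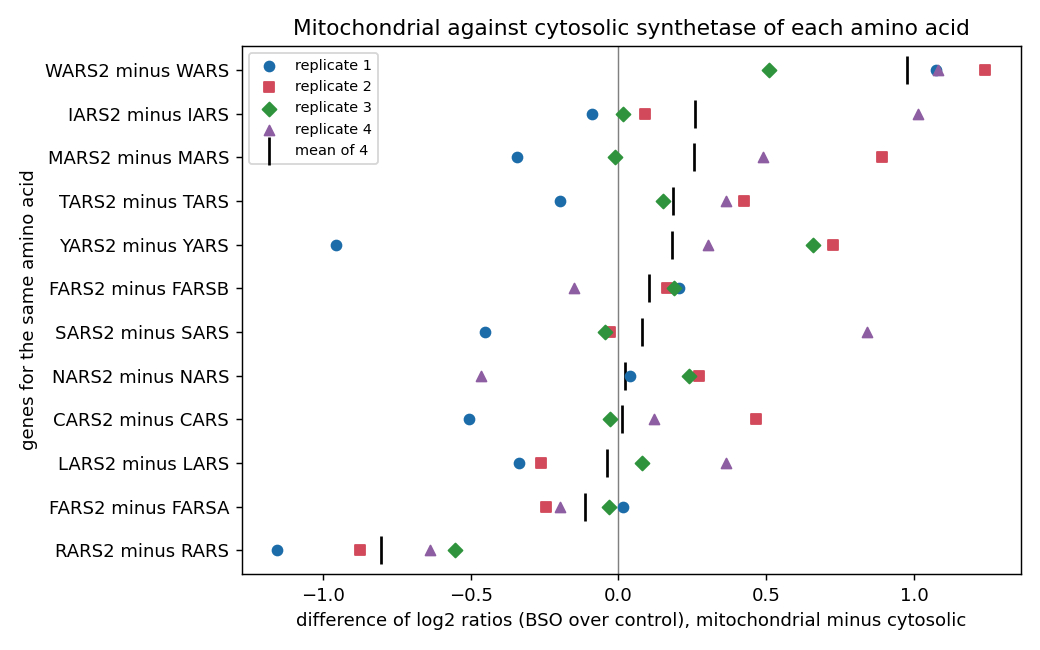
Difference between the log2 ratios of the mitochondrial and the cytosolic gene for the same amino acid (horizontal axis, mitochondrial minus cytosolic), with a marker per replicate and a black line for the mean. WARS2 minus WARS lies above 0 and RARS2 minus RARS below 0 in all 4 replicates, while the replicates of the other 10 pairs lie on both sides of 0.

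Among the cytosolic genes, the spread between replicates was near that of bright genes on the array. The lowest and highest replicate were over 0.5 apart for 5 of 12 mitochondrial and 9 of 16 cytosolic genes, against 33.1% of all named genes and 60.6% of the brighter ones. Median log2 intensity was 8.55 for the mitochondrial and 10.08 for the cytosolic genes, against 7.86 for all named genes. Replicate 1 was above replicate 2 for 5 of 12 mitochondrial and 15 of 16 cytosolic genes, LARS being the exception, against 49.6% of all named genes. The median of replicate 1 minus replicate 2 was -0.091 over the mitochondrial and 0.41 over the cytosolic genes, against -0.0021 over all named genes. Among 11 measured cytosolic synthetases known as ATF4 targets in cultured cells, it was 0.51, and replicate 1 was above replicate 2 for 10 of them, and it was so for 5 of the 5 other cytosolic genes too. These replicates were compared after their values were seen, and the genes share the same pools, so this describes the pools and is not a test.

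ATF4 itself was at -0.070, -0.76, -0.28 and -0.30, lowest in replicate 2, as were 28.5% of all named genes. Its mean was -0.35 ± 0.12, with a limma adjusted p of 0.185, and the mean was -0.22 without replicate 2. Of 22 measured genes of the integrated stress response, 14 were below 0, with a median of -0.11. At an unadjusted p under 0.05, 7 were lower, against 14.8% of named genes, and 0 were higher, against 10.4%, and 0 passed the adjusted threshold with limma. CHAC1, which breaks down glutathione, was at -0.45, -1.05, -0.88 and -0.74, and ASNS, the asparagine synthetase, was at -0.89, -1.47, -0.35 and -0.30. CHAC1 averaged -1.68 with BSO in Cy5 and 0.12 with BSO in Cy3, a dye gap that cancels in each replicate if it is equal across pairs. TRIB3, a feedback inhibitor of ATF4, was at -0.24 ± 0.097, and DDIT3, a transcription factor of the same response, at -0.098 ± 0.12. EIF2AK4, the kinase that senses uncharged transfer RNA, was at 0.18 ± 0.070, above 0 in all 4 replicates, with a limma adjusted p of 0.227, and the stress-induced SESN2 was at 0.024 ± 0.039. In the fit of 8 arrays with a replicate block, 5 genes of this list were lower at a limma adjusted p under 0.05, against 7.82% of named genes, and 0 were higher. They included CHAC1 at 0.00248, ASNS at 0.0261 and ATF4 at 0.0466. That fit uses the same pools and 1 correlation for all genes, so it adds no replication. CHAC1 also passed in limma with the stricter brightness filter, at 0.0400, and with array weights, at 0.0487.

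Genes for synthetase partners and transfer RNA maturation had ratios of both signs. Of 52 measured genes on this list, 19 were below 0 and 33 above, with a median of 0.058. Those lower at an unadjusted p under 0.05 numbered 5, against 14.8% of named genes, and those higher 10, against 10.4%, and 0 passed the adjusted threshold with limma. The highest ratios were those of TRIT1, which adds an isopentenyl group beside the anticodon, at 0.48 ± 0.096, and NSUN2, a transfer RNA methyltransferase, at 0.43 ± 0.16. RG9MTD1, a subunit of mitochondrial RNase P now named TRMT10C, followed at 0.34 ± 0.15. NSUN2 was at 0.24 without replicate 1, and RG9MTD1 at 0.16 without replicate 2. The lowest were those of POP7, a subunit of nuclear RNase P, at -0.53 ± 0.083, and EEF1G, a subunit of the factor that recharges the elongation factor, at -0.52 ± 0.14. CLP1, an RNA kinase bound to the transfer RNA splicing enzyme, was at -0.50 ± 0.077. Limma adjusted p for these 6 genes ran from 0.0723 for CLP1 to 0.271 for RG9MTD1. With the replicate block, 4 genes of the list were lower at a limma adjusted p under 0.05, against 7.82% of named genes. In that fit 2 were higher, against 5.24%, so both counts were near the background. Among these genes were POP7 at 0.00369, CLP1 at 0.00654, TRIT1 at 0.0214 and EEF1G at 0.0265.

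**Figure D4:**
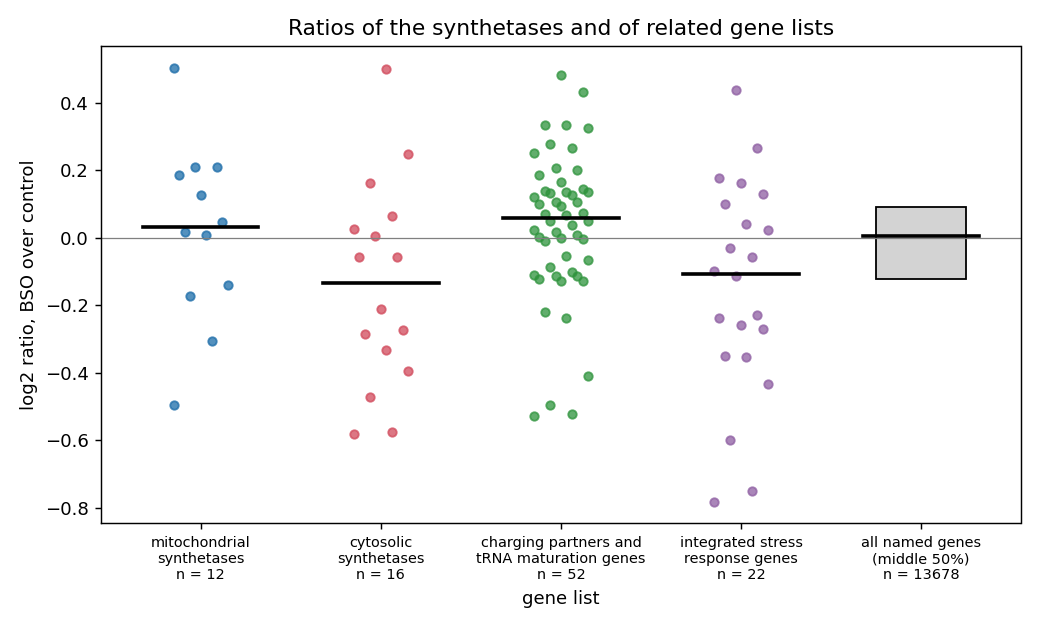
Log2 ratio of BSO over control (vertical axis) of each gene in 4 lists, with a black line at the median, beside a grey box for the middle 50% of all 13678 named genes. Medians are 0.032 for mitochondrial synthetases, -0.13 for cytosolic synthetases, 0.058 for partners and maturation genes, -0.11 for integrated stress response genes and 0.0044 for all named genes.

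When the 8 arrays were fitted singly, with a replicate block for each dye-swap pair, 6 synthetases passed an adjusted p of 0.05 with limma. RARS2, WARS, SARS and KARS were lower, against 7.82% of named genes, and WARS2 and RARS were higher, against 5.24%. Their adjusted p with limma in this fit ran from 0.0058 for RARS to 0.0389 for WARS. The correlation within pairs was estimated at 0.543, a single value for all genes, and 13.1% of named genes were called. Means in this fit are those of the 4 replicates, and no further pools enter it. For SARS, the limma adjusted p went from 0.135 to 0.0187 at an unchanged mean of -0.57. The 6 calls therefore depend on that shared correlation and do not add replication. The log2 ratios that the authors deposited were averaged to the same replicates. In them the 6 genes were at -0.30, -0.43, -0.55 and -0.56 for RARS2, WARS, SARS and KARS, and at 0.54 and 0.50 for WARS2 and RARS. None of the 28 synthetases passed with those values in limma, where 0.621% of named genes did, and at an unadjusted p under 0.05 there were 8 lower, against 14%, and 5 higher, against 13.8%.

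**Figure D5:**
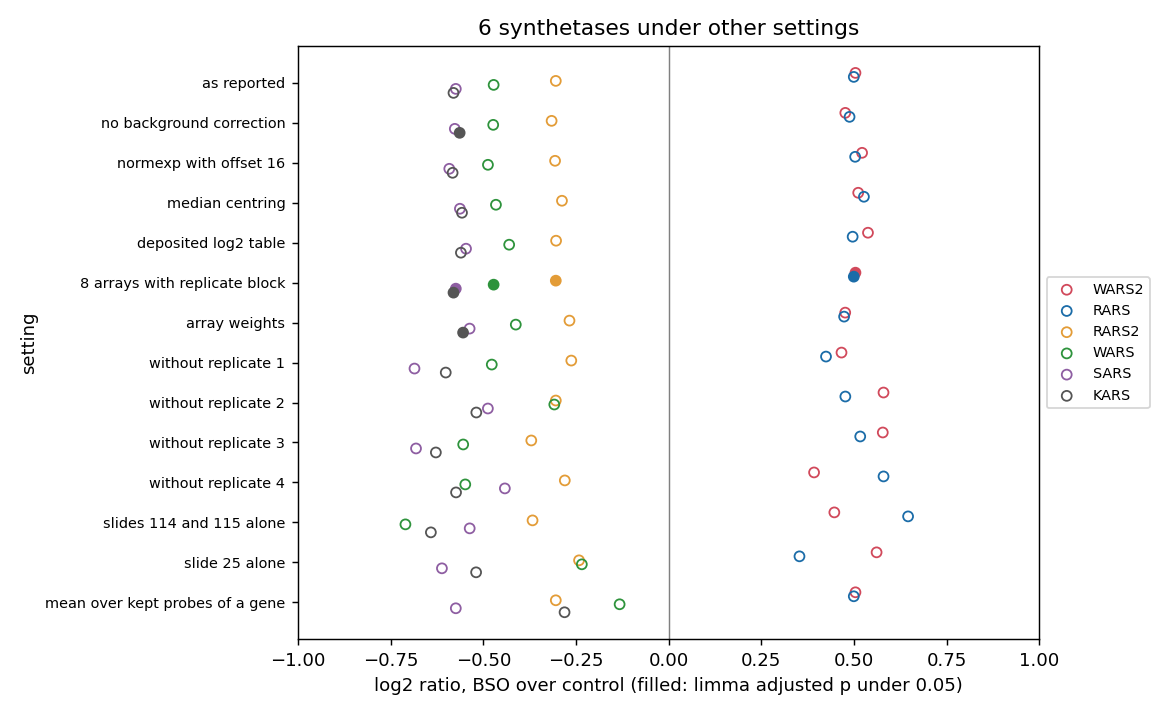
Log2 ratio of BSO over control (horizontal axis) of 6 synthetases under 14 settings (vertical axis), with filled circles at a limma adjusted p under 0.05. Each gene keeps its sign in every setting drawn, WARS and KARS lie nearest 0 when the probes of a gene are averaged, all 6 circles are filled in the fit with a replicate block, and KARS alone is filled without background correction and with array weights. The setting with a pair of slide numbers holds replicates 1 and 2.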

How the data were processed

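Embryo RNA went through repeated linear T7 amplification and non-enzymatic dye coupling, per the labels' protocols. Per the file headers, the deposited intensity values were the raw mean brightness of each spot and its local background. The log2 ratios that the authors deposited came with limma named in the submitters' processing notes, while how they were background-corrected and normalized is not given in the sources used here. Compared with ratios computed from the scanner values, they were BSO over control, with array medians of 0.0011 to 0.013 and correlations of 0.919 to 0.991 over probes.

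From the scanner intensities, R 4.3.3 and limma 3.58.1 gave ratios by normexp with offset 50, then loess within arrays with control spots at weight 0. Kept probes exceeded the 95th percentile of 153 negative controls on at least 4 of 8 arrays in one treatment. Arrays were paired by order within slides. Deviations from the orientation means correlated at 0.657 to 0.843 within pairs and at -0.049 or below between them, a gap partly built in because deviations sum to 0. Replicate means were tested against 0 with lmFit and eBayes, Benjamini-Hochberg adjusted over 36995 probes. The code was tested on simulated data.

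Symbols are those of the platform annotation. For 20 of the 43 probes the current RefSeq symbol adds a 1 (AARS1 for AARS). No build was named, so no coordinates are given. Values in all replicates were given for the 6 highest and 6 lowest genes, the glutathione amino acids and, chosen after their values were seen, FARSB, RARS2, TARS2 and YARS. From the other lists, the 3 highest and 3 lowest partners, the complex scaffolds and a fixed set of stress genes were named. The members and lists were chosen with earlier results of these data known.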

Additional observations from a re-analysis of the deposited data

How the results depend on the processing

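The number of arrays and the brightness of a probe limit these results. Of the 28 synthetases, 6 had a mean log2 intensity under 8, against 7.10 for the 95th percentile of the negative controls. Probes of 1 gene differed in sign for 6 of the 10 genes with several kept probes. For WARS, YARS2, NARS2 and CARS2 among them, the dimmer probes lay near the background, so a difference in sign there says little. Synthetases past an adjusted p of 0.05 numbered 0 as reported. They numbered 1 (KARS) without background correction, against 1.35% of named genes. With the stricter brightness filter they numbered 1, against 2.58%, and with array weights 1, against 1.06%. With the replicate block, which applies 1 correlation to all genes and adds no pools, they numbered 6, against 13.1%. They numbered 12 with 8 arrays and no replicate block, where pools count more than once, against 22%. Probes past that p over the whole array numbered 0 as reported, 468, 239, 356, 3948 and 7011 in these settings, 220 in the deposited log2 ratios and 91 without a filter on dim probes. Synthetases higher at an unadjusted p under 0.05 numbered 2 with the stricter filter, which tested 15 of them, and 2 to 4 with single replicates left out, against 13.8% of named genes with that filter and 7.44% to 10.9% with a replicate left out. Those lower numbered 4 on the slide pair alone, against 10.6%, and 4 on slide 25 alone, against 10.3%. Genes with a dye effect numbered 0 with the stricter filter, where SARS2, FARSA and CARS2 were not among those tested. WARS was tested there and did not pass. The mitochondrial median was -0.019 on the slide pair alone and -0.017 to 0.070 with single replicates left out. Leaving out GARS and KARS, an alternative chosen after seeing the data, gave a difference between compartments of 0.090. CARS turned sign without background correction (-0.0048), with median centring (-0.012), with array weights (-0.0066) and on slide 25 alone (-0.014), and lay between -0.17 and 0.16 with single replicates left out. Ranges that crossed 0 on leaving out a replicate were -0.0098 to 0.037 for CARS2, -0.21 to 0.019 for DDIT3 and -0.000154 to 0.043 for SESN2. DDIT3 was at 0.019 on the slide pair alone, and NARS2 at -0.077 on slide 25 alone. For each of these changes the cause was not tested, apart from the genes that the stricter filter left out. Single genes were followed through these settings for 30 of the genes named here, and the rest of those 30 kept their sign in every setting run. Other named genes, among them YARS, TARS and IARS2, were not followed. On the slide pair and on slide 25, YARS was at 0.14 and -0.084, TARS at 0.0069 and -0.12, and IARS2 at -0.14 and 0.24. No replicate of a synthetase stood apart by Dixon's test over the 4 replicates of each of the 28 genes.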
